A study of Mus musculus with 18 samples.

Results

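The cells described here are ∆Foxp3 CD4 T cells that had grown up beside wild-type (WT) cells in mixed bone marrow chimeras, set against ∆Foxp3 CD4 T cells of ∆Foxp3 mice, which had no WT T cells around them. They were taken by sample name from the deposited cell annotation (3 ∆Foxp3 chimera samples and 2 ∆Foxp3 samples of the same V3 reagent kit), within 2 of the authors' cell classes, Treg and activated conventional T cells (activated Tconv). That gave 1922 cells, with 325, 258 and 304 cells in the chimera samples and 525 and 510 cells in the ∆Foxp3 samples, out of 7057 cells of all classes in these samples and 26652 cells in 18 samples of the series. All mice were male, the strains of every group were labelled B6, and spleen cells were sorted as TCRβ+CD4+ for droplet single-cell RNA sequencing. Chimera cells came from irradiated (1000 rad) CD45.2 recipients, 7 weeks old at transplant, that received CD3-depleted marrow cells, 50% from each of a pair of donor strains, and were killed 10 weeks later; the sample label gives an age of 16 weeks. The ∆Foxp3 donor carried Foxp3DeltaEGFPiCre (written with an added RFP in the series' design), ROSA-YFP and CD45.1/2, and its cells were sorted as CD45.1+CD45.2+. The WT donor carried Foxp3-IRES-GFP and CD45.1; both donors were 21 days old. ∆Foxp3 mice carried Foxp3DeltaEGFPiCre and ROSA-YFP and were 3 weeks old. WT chimera cells (3 samples, the other donor's cells in the same chimeras) and WT mice (2 samples, 9 weeks old, carrying Foxp3-IRES-GFP and CD45.1) entered the same fits, and 1189 of their cells fell in the 2 classes. WT samples sorted as Treg or conventional cells (2 of each, 9 weeks old) also entered the gene fits. The sorted Treg samples (331 and 231 cells) entered the Treg fit. The sorted conventional samples (48 and 40 activated-class cells) entered the activated fit. The design therefore sets the presence of WT cells together with age, irradiation, transplantation, the CD45 allele and the RNA level at the ROSA locus, and these cannot be told apart in the comparison of chimera with ∆Foxp3 mice.

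Foxp3 is the transcription factor that specifies and maintains regulatory T (Treg) cells, a CD4 lineage that restrains the activation of other T cells. Male mice without a working Foxp3, as in the scurfy strain, die young from multi-organ lymphoproliferation driven by activated CD4 T cells. T cells whose Foxp3 locus is active but yields no working protein still exist in such animals and can be seen through a reporter. GFP RNA was counted here, but in ∆Foxp3 mice it was not confined to the Treg class, as given below. In a mixed chimera, Treg cells come from the WT donor, and mutant cells of the same mouse are exposed to them.

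Several facts on the samples bear on all results. The deposited strain column named the WT donor strain for ∆Foxp3 chimera replicate 2 and the ∆Foxp3 donor strain for WT chimera replicate 1, against their sample names. A gene that separated the genotypes in resting cells was chosen after its values had been seen. This was Ctse, the protease cathepsin E, at 15.9, 20.5 and 15.4 counts per 1000000 UMIs (CPM) in ∆Foxp3 chimera resting cells and 11.5 and 10.9 CPM in those of ∆Foxp3 mice, with 146.9, 159.5 and 163.5 CPM in WT chimera cells and 149.6 and 135.4 CPM in WT mice. RNA of the ROSA locus, where ROSA-YFP is inserted, separated the ∆Foxp3 chimera from ∆Foxp3 mice and both from the WT samples (Gt(ROSA)26Sor, with 20.2, 19.1 and 19.7 CPM in resting ∆Foxp3 chimera cells and 1.81 and 0.991 CPM in ∆Foxp3 mice; 38.2, 38.4 and 38.98 CPM in WT chimera cells and 35.5 and 33.6 CPM in WT mice). On both genes replicate 2 sat with the ∆Foxp3 samples and was used under its sample name. Counts of all genes called against ∆Foxp3 mice, and of Th1 and cytotoxic genes in the Treg class, are also given without it. Most other counts are given only with it.

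Cells carried hashtag antibodies, 1 barcode per chimera mouse, and were pooled in 2 droplet channels, A and B. The barcodes are shown because they say which samples share an animal.
∆Foxp3 chimera 1 (channel A): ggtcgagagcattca
∆Foxp3 chimera 2 (channel B): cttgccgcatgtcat
∆Foxp3 chimera 3 (channel A): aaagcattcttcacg
∆Foxp3 mice 1 (channel A) and 2 (channel B): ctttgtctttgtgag
The ∆Foxp3 samples shared a hashtag across the channels, so they may be 1 animal or pool encapsulated in each channel, and the spread between them may be technical. WT and ∆Foxp3 chimera cells of the same number carried the same hashtag, and the series' design gives each chimera mouse a hashtag of its own, so they are taken as cells of 1 recipient. Only 9 cell barcodes occurred in both channels, in 18 of 12731 V3 cells.

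Total UMI counts (unique molecular identifiers, 1 per captured RNA molecule) ran from 5997672 to 11884169 per ∆Foxp3 chimera sample and from 7192886 to 9438617 per ∆Foxp3 sample. Activated cells held a median of 5109, 5044 and 5092 UMIs in ∆Foxp3 chimera samples, against 7077 and 9735.5 UMIs in ∆Foxp3 mice, and Treg cells held 4760, 4477.5 and 4753 UMIs, against 6210 and 7746 UMIs. All gene levels below are therefore given as CPM of the class sum in a sample, and shares of positive cells were computed after thinning each cell to 1500 UMIs, which left out 0 cells. Of the defining Treg markers checked, 9 of 10 were highest in the Treg class in every ∆Foxp3 chimera sample and 9 of 10 in every ∆Foxp3 sample. For activated Tconv markers it was 6 of 8 in both groups. In the Treg class, summed markers of myeloid cells were at 101.3 to 162.8 CPM in ∆Foxp3 chimera samples, against 202.7 to 231.4 CPM in ∆Foxp3 mice, with Csf1r and Itgam at 0 in both groups. Summed B cell markers were at 270.2 to 377.1 CPM in chimera Treg sums, against 102.8 to 146.5 CPM, with Pax5 at 0 in both. In the activated class the myeloid sums were 112.2 to 152.9 CPM, against 236.9 to 267.7 CPM, and the B cell sums 169.8 to 241.9 CPM, against 110.9 to 125.97 CPM. Without cells that carried markers of other types, and without NKT cells, the activated class gave 14 lower and 0 higher of 19 Th1 and cytotoxic genes. It gave 28 lower and 1 higher of 37 activated and memory genes, and 2 lower and 23 higher of 36 interferon response genes. Over all genes the same fit called 1032 lower and 915 higher. Shares over all genes tested in it are not given, so these list counts cannot be read against them. The counts with these cells follow below. In sums over cells, fewer cells of a kind and less RNA per cell cannot be told apart.

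Counts of Foxp3, the disrupted gene, and of GFP and Cre were deposited separately. In the Treg class, native Foxp3 RNA was at 3.90, 25.7 and 21.1 CPM in the ∆Foxp3 chimera and 14.0 and 20.4 CPM in ∆Foxp3 mice. The groups overlapped. GFP transcripts were at 19.5, 68.6 and 25.3 CPM in chimera Treg-class cells, against 385.6 and 364.4 CPM in ∆Foxp3 mice. Cells with GFP made up 9.80%, 25% and 10.6% of the chimera Treg class, against 67.7% and 60.6% in ∆Foxp3 mice. In the activated class GFP was at 4.70, 19.7 and 7.20 CPM, against 214.6 and 287.4 CPM. Cre gave 0, 0 and 1 UMIs in chimera Treg-class cells, against 6 and 5 UMIs. GFP was thus far lower in every ∆Foxp3 chimera sample than in either ∆Foxp3 sample, in both classes. In resting conventional cells GFP was at 3.45, 7.56 and 2.04 CPM in the chimeras, against 186.3 and 188.8 CPM in ∆Foxp3 mice. Cells with GFP made up 35.7% and 31.7% of the resting and 41.3% and 46.6% of the activated class in ∆Foxp3 mice. YFP counts were 0 in V3 cells, although the ∆Foxp3 mice carry ROSA-YFP. The source of the GFP counts was not tested. In the Treg class the Foxp3 row of the deposited matrix held native Foxp3 plus Cre UMIs in the ∆Foxp3 chimera and ∆Foxp3 mice and native Foxp3 plus GFP UMIs in WT samples. Its fold change is not used here, and the row is left out of the gene lists, although counts over all genes include it.

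Both classes were smaller in the chimeras. Activated Tconv cells made up 12.8%, 23.5% and 12.4% of ∆Foxp3 chimera CD4 cells, against 46.0% and 47.4% in ∆Foxp3 mice, a log2 ratio of -1.55 (edgeR quasi-likelihood test on cell numbers, adjusted p = 0.000249). Treg-class cells made up 2.39%, 4.84% and 2.27%, against 6.49% and 7.05% (log2 ratio -1.19, adjusted p = 0.0133). That call was lost without ∆Foxp3 chimera replicate 1 (adjusted p = 0.0529) and without ∆Foxp3 replicate 1 (0.0555) or 2 (0.0804). Resting cells filled the rest, with 84.8%, 71.6% and 85.3%, against 47.6% and 45.5% (log2 ratio 0.79, adjusted p = 5.32e-05). Replicate 2 stood apart from the other chimera samples in all 3 shares, on the side of the ∆Foxp3 mice, yet no share overlapped between the groups. An exact two-sided permutation test gave p = 0.1 for the activated and resting classes and p = 0.2 for the Treg class; with 3 against 2 samples it cannot go below 0.1.

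**Figure D1:**
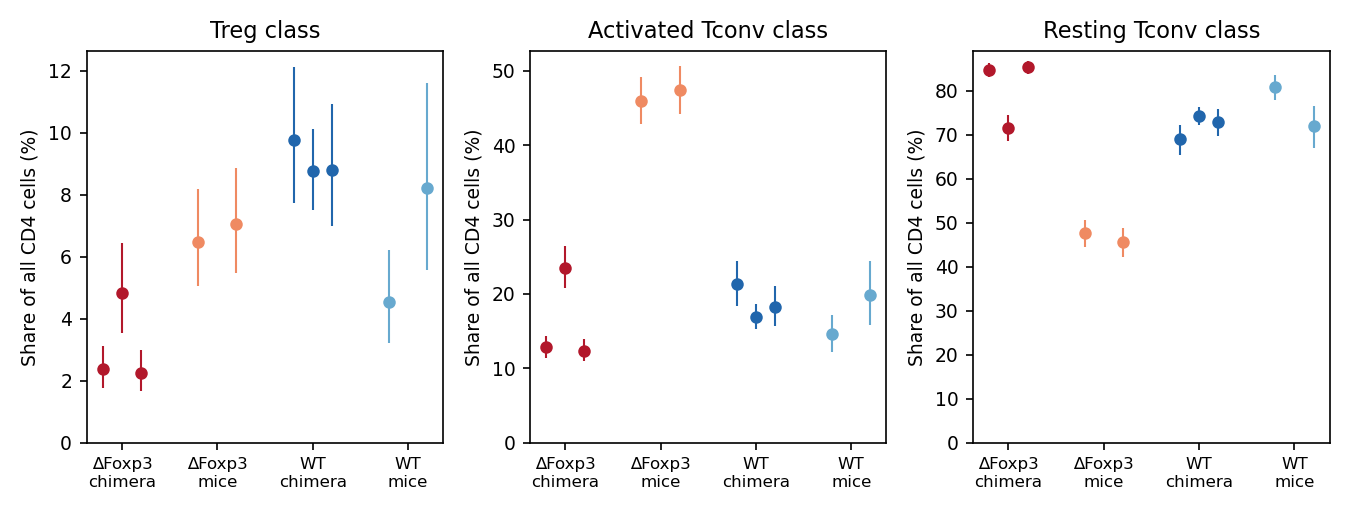
Share of each cell class among all CD4 cells of a sample, in percent, for ∆Foxp3 chimera, ∆Foxp3 mice, WT chimera and WT mice; points are samples and bars are exact 95% binomial intervals, which cover counting error only. The activated Tconv share lies between 12.4% and 23.5% in ∆Foxp3 chimera samples and at 46.0% and 47.4% in ∆Foxp3 mice.

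The make-up of the activated class shifted as well. The dividing cluster held 7.58 ± 4.67% of activated cells in ∆Foxp3 chimeras, against 24.1 ± 4.83% in ∆Foxp3 mice (SD, n = 3 and 2; log2 ratio -1.63, adjusted p = 0.00697). The largest ∆Foxp3 cluster, which the authors named Tconv_activated_2, held 20.1 ± 5.03%, against 38.0 ± 4.99% (log2 ratio -0.91, adjusted p = 0.00697). Tissue-like cells held 27.9 ± 4.81%, against 15.03 ± 1.501%, the Th1 cluster 15.4 ± 2.50%, against 8.85 ± 0.222%, and the Irf7 interferon cluster 3.59 ± 2.63%, against 0.439 ± 0.302%; these 3 shares were higher in the chimeras, with log2 ratios of 0.89, 0.80 and 2.90. The Tfh cluster held 21.7 ± 12.5%, against 10.6 ± 1.83%, and did not pass the test (adjusted p = 0.0696). Within the Treg class, activated Treg cells made up 52.4 ± 9.93%, against 64.9 ± 3.94%, and resting Treg cells 47.6 ± 9.93%, against 34.3 ± 2.87%, neither past the test.

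Gene content was then compared class by class on UMI sums per sample. In the activated class, 1122 of 8744 tested genes were higher and 1325 lower in ∆Foxp3 chimera cells than in ∆Foxp3 mice at an adjusted p of 0.05, or 12.8% and 15.2% of all tested genes (28% in all). In the Treg class, 338 of 6136 tested genes were higher and 361 lower, or 5.51% and 5.88% (11.4% in all). Without ∆Foxp3 chimera replicate 2 the activated counts were 1057 and 1224 and the Treg counts 316 and 310. Without ∆Foxp3 replicate 2 they were lowest, at 422 and 621 in the activated and 146 and 190 in the Treg class. Of the 361 genes lower in the Treg class, 307 were also lower in the activated class (85.0% of the Treg and 31.0% of the activated calls among genes tested in both), and 265 were higher in both (78.9% and 30.5%). Only Klrg1 and Evi2a were called in opposite directions, named here after their values were seen. The lists of genes below are read against these percentages, and the median log2 fold change over all tested genes was 0.02 in the activated and 0.01 in the Treg class.

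**Figure D2:**
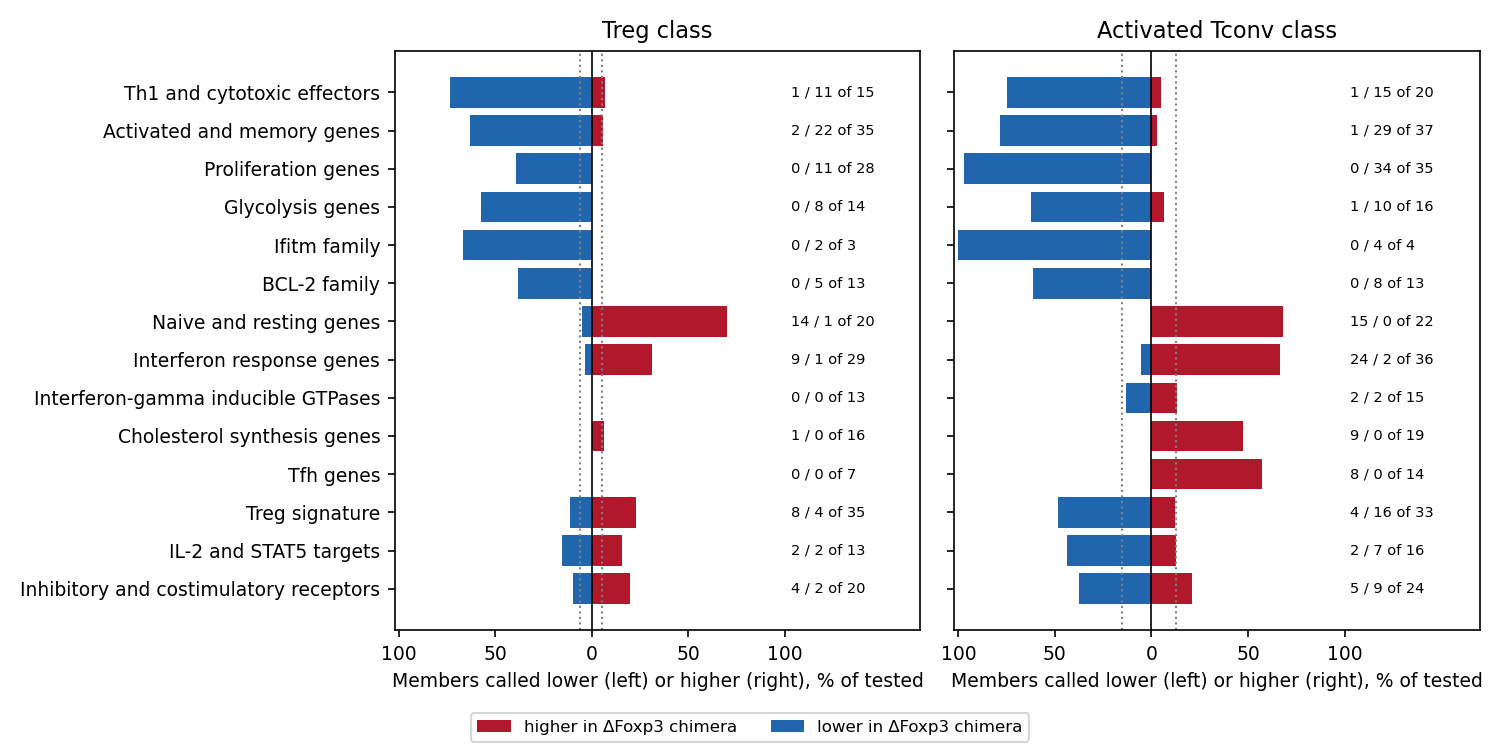
Share of the tested members of each gene list that were higher (right, red) or lower (left, blue) in ∆Foxp3 chimera cells than in ∆Foxp3 mice at an adjusted p of 0.05, for the Treg and the activated class; numbers at the right give higher / lower of tested, and dotted lines mark the same shares over all tested genes. Effector, memory and proliferation lists lie to the left in both classes, and naive and interferon response lists to the right.

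Effector genes of the Th1 and cytotoxic programme were lower in activated cells of the chimeras. Of 20 tested list members, 15 fell and 1 rose, with a median log2 fold change of -1.67. Gzmb, the granule protease granzyme B, was at 34.3, 4.73 and 7.91 CPM in the ∆Foxp3 chimera and 384 and 329 CPM in ∆Foxp3 mice (log2 fold change -4.43 ± 0.52, adjusted p = 2.42e-05; the value after ± is the standard error here and below). Nkg7, a granule membrane protein of cytotoxic lymphocytes, was at 234, 139 and 130.2 CPM in the ∆Foxp3 chimera and 1049 and 1022 CPM in ∆Foxp3 mice (-2.60 ± 0.23, adjusted p = 1.54e-06). The groups did not overlap for either gene, and over all tested genes 28.2% lay lower without overlap. Gzmb was named under a rule that required no overlap, and Nkg7 for its low p in the same data. The absence of overlap is therefore not separate support. Il18rap, the accessory chain of the interleukin-18 receptor, was at 17.5, 25.2 and 15.1 CPM in the ∆Foxp3 chimera and 165 and 141 CPM in ∆Foxp3 mice (-2.99 ± 0.26, adjusted p = 1.54e-06). Serpinb9, an inhibitor of granzyme B, was at 20.8, 18.9 and 21.6 CPM in the ∆Foxp3 chimera and 108 and 108 CPM in ∆Foxp3 mice (-2.38 ± 0.16, adjusted p = 1.79e-07), and its relative Serpinb6b at 30.2, 21.3 and 16.5 CPM in the ∆Foxp3 chimera and 224 and 253 CPM in ∆Foxp3 mice (-3.37 ± 0.25, adjusted p = 2.43e-07). Ifng itself was at 12.8, 43.3 and 10.1 CPM in the ∆Foxp3 chimera and 73.8 and 69.1 CPM in ∆Foxp3 mice (-1.73 ± 0.44, adjusted p = 0.0089); the call was lost without ∆Foxp3 chimera replicate 3, without ∆Foxp3 replicate 2 and with DESeq2 (adjusted p = 0.0512, 0.0551 and 0.0961). Tbx21, which encodes the Th1 regulator T-bet, was at 24.9, 14.2 and 14.4 CPM in the ∆Foxp3 chimera and 54.7 and 56.3 CPM in ∆Foxp3 mice (-1.61 ± 0.24, adjusted p = 1.56e-04). Klrk1, which encodes the NKG2D receptor, was the list member that rose (log2 fold change 2.41, adjusted p = 0.0228), a call lost without ∆Foxp3 chimera replicate 1 or 3 (adjusted p = 0.0607 and 0.11), without ∆Foxp3 replicate 2 (0.26) and with DESeq2 (0.11).

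**Figure D3:**
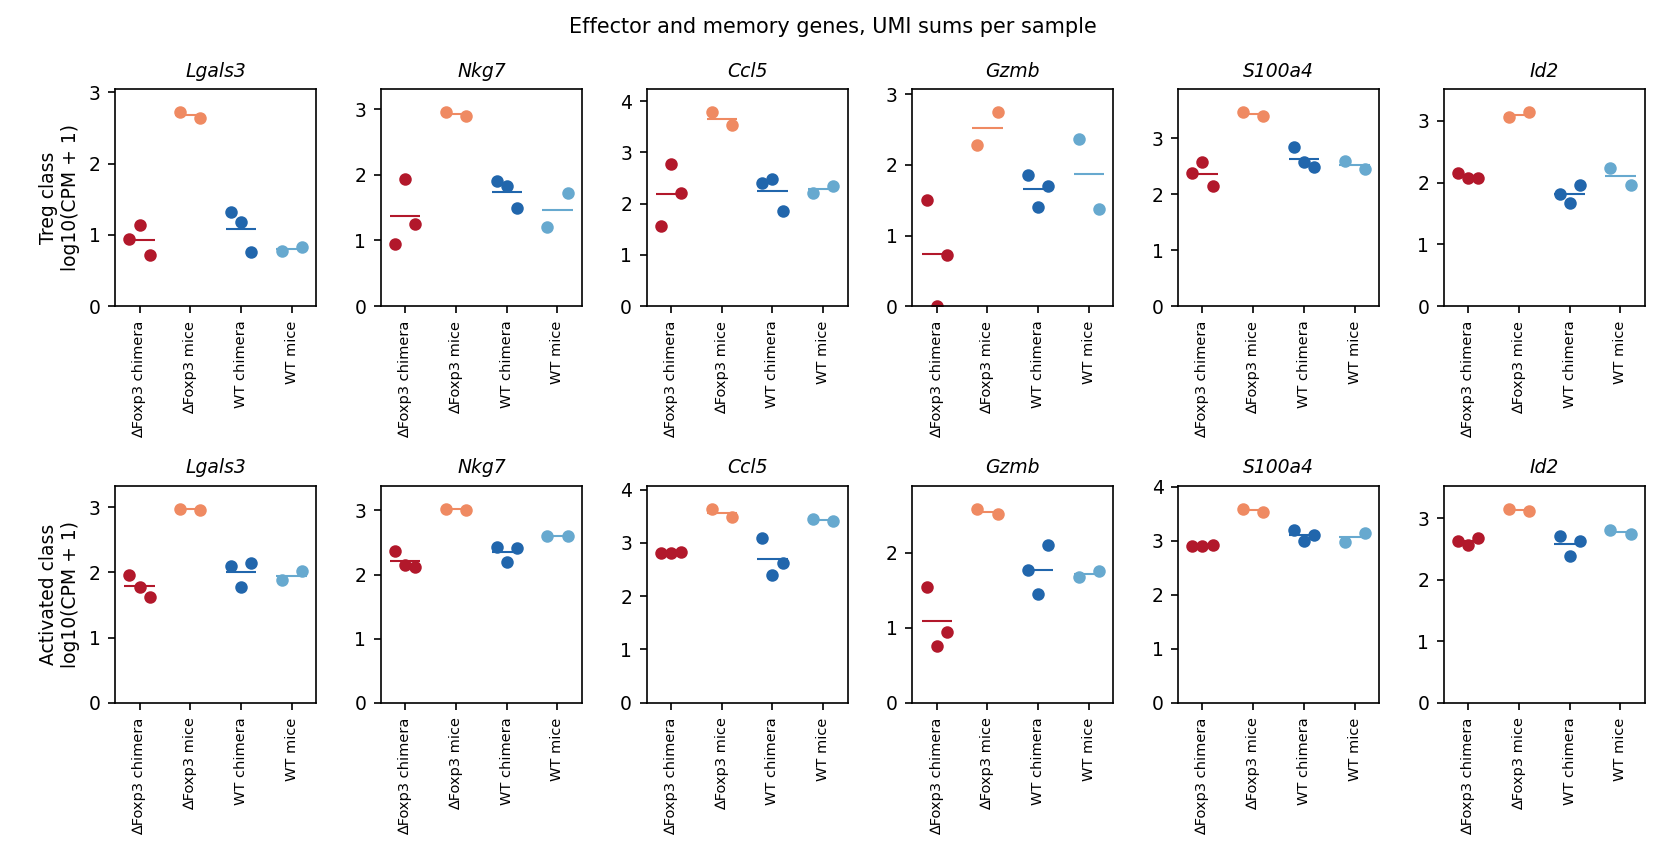
Levels of 6 effector and memory genes, as log10(CPM + 1) of the UMI sum per sample, in the Treg class (top) and the activated class (bottom) for ∆Foxp3 chimera, ∆Foxp3 mice, WT chimera and WT mice; points are samples and lines are group means of the plotted values. In every panel the ∆Foxp3 mice lie above all ∆Foxp3 chimera samples.

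Chemokine RNA of the inflammatory CC class was lower too. Ccl5, which recruits effector lymphocytes and monocytes, was at 654, 645 and 686 CPM in the ∆Foxp3 chimera and 4323 and 3052 CPM in ∆Foxp3 mice (-2.47 ± 0.40, adjusted p = 3.57e-04). Ccl4 was at 2.02, 0.788 and 1.44 CPM in the ∆Foxp3 chimera and 197 and 52.9 CPM in ∆Foxp3 mice (-6.32 ± 0.81, adjusted p = 4.65e-05). For Ccl3, 1 UMI was counted over the ∆Foxp3 chimera samples and 279 UMIs over the ∆Foxp3 mice, a ratio of 0.00715 (95% counting interval 0.000180 to 0.0401). Of 6 chemokines tested, these 3 fell and Xcl1, a ligand for cross-presenting dendritic cells, rose (log2 fold change 5.36, adjusted p = 0.0267). The Xcl1 call was lost without ∆Foxp3 chimera replicate 2, ∆Foxp3 replicate 1 or ∆Foxp3 replicate 2 (adjusted p = 0.20, 0.11 and 0.12) and without cells that carried markers of other types (0.40). Cxcr6, a chemokine receptor of effector and tissue T cells, was at 93.4, 113 and 129.5 CPM in the ∆Foxp3 chimera and 342 and 308 CPM in ∆Foxp3 mice (-1.53 ± 0.40, adjusted p = 0.0102), a call lost without ∆Foxp3 replicate 1 (adjusted p = 0.0603) and without replicate 2 (adjusted p = 0.0516). Of 21 homing receptors tested, 7 rose and 7 fell; the risers included Ccr7, which guides T cells into lymph nodes, and Cxcr5, which guides them into B cell follicles.

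Genes of activated and memory T cells were mostly lower too: 29 of 37 tested members fell and 1 rose in the activated class (median -1.25). Lgals3, the carbohydrate-binding galectin-3, was at 89.3, 59.1 and 41.01 CPM in the ∆Foxp3 chimera and 935 and 909.9 CPM in ∆Foxp3 mice (-3.84 ± 0.30, adjusted p = 4.02e-07). S100a4, a calcium-binding protein of motile memory cells, was at 790.0, 789.6 and 839.7 CPM in the ∆Foxp3 chimera and 3904 and 3450.2 CPM in ∆Foxp3 mice (-2.18 ± 0.21, adjusted p = 3.40e-06). Id2, a repressor of E proteins that favours effector fates, was at 429, 362 and 469.9 CPM in the ∆Foxp3 chimera and 1408 and 1305 CPM in ∆Foxp3 mice (-1.68 ± 0.22, adjusted p = 6.59e-05). Serpina3f, a serine protease inhibitor, was at 1.34, 4.73 and 2.88 CPM in the ∆Foxp3 chimera and 76.7 and 65.8 CPM in ∆Foxp3 mice (-4.57 ± 0.40, adjusted p = 1.34e-06). The metallothionein Mt1 had 3 UMIs over the chimera samples and 715 UMIs over the ∆Foxp3 mice, a ratio of 0.00837 (95% counting interval 0.00172 to 0.0245). Cd44, the classical memory surface marker, did not pass (log2 fold change 0.05), but was lower within Tconv_activated_2 (-0.98, adjusted p = 0.00207). Receptors of the leukocyte immunoglobulin-like family were lower, with log2 fold changes of -3.96 for Gp49a and -3.13 for Lilrb4. The costimulatory receptor Cd27 was higher, with 309 ± 56.7 CPM in the ∆Foxp3 chimera and 119.5 ± 9.55 CPM in ∆Foxp3 mice (SD, n = 3 and 2). Its log2 fold change was 1.38 ± 0.17 (adjusted p = 3.15e-05). Over 24 tested members of the list of inhibitory and costimulatory receptors, 5 rose and 9 fell.

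Of 35 proliferation genes tested, 34 were lower in the activated class and 0 higher (median -2.59). Cdc20, an activator of the anaphase-promoting complex, was at 6.05, 7.09 and 7.91 CPM in the ∆Foxp3 chimera and 98.7 and 114 CPM in ∆Foxp3 mice (-3.91 ± 0.51, adjusted p = 5.48e-05). Ccnb2, a mitotic cyclin, was at 20.2, 11.03 and 18.7 CPM in the ∆Foxp3 chimera and 162 and 204 CPM in ∆Foxp3 mice (-3.43 ± 0.45, adjusted p = 5.39e-05). Hmgb2, a chromatin protein of dividing cells, averaged 614 ± 69.5 CPM in the ∆Foxp3 chimera and 2690.3 ± 426 CPM in ∆Foxp3 mice (SD, n = 3 and 2, for all means below). The histone H2afz averaged 678 ± 76.5 CPM in the ∆Foxp3 chimera and 3085 ± 523 CPM in ∆Foxp3 mice. The dividing cluster was also a smaller part of the class in the chimeras, as given above. Within the Th1 cluster alone, 1 of 14 proliferation genes fell and 0 rose, and within Tconv_activated_2 it was 9 of 15, with 1 rise. Shares called over all genes tested within these clusters are not given. Among metabolic genes, 10 of 16 glycolysis genes fell and 1 rose. Gapdh was at 834, 1312 and 958 CPM in the ∆Foxp3 chimera and 1914 and 2284 CPM in ∆Foxp3 mice (-1.02 ± 0.14, adjusted p = 1.02e-04), and Slc16a3, a lactate exporter, had a log2 fold change of -2.26. Cholesterol synthesis genes moved the other way, with 9 of 19 higher and 0 lower; the master regulator Srebf2 had 46.4 ± 7.45 CPM in the ∆Foxp3 chimera and 21.5 ± 3.37 CPM in ∆Foxp3 mice (SD, n = 3 and 2; 1.11 ± 0.23, adjusted p = 0.00229). In the BCL-2 family 8 of 13 fell and 0 rose, with pro-apoptotic Bbc3 at 12.2 ± 1.93 CPM in the ∆Foxp3 chimera and 86.04 ± 17.1 CPM in ∆Foxp3 mice and anti-apoptotic Bcl2a1b at 113 ± 51.5 CPM in the ∆Foxp3 chimera and 256 ± 23.2 CPM in ∆Foxp3 mice.

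Not every effector programme was lower. Of 11 cytokine genes tested in the activated class, 4 rose and 3 fell. Il2, the T cell growth factor, was at 22.8, 36.2 and 17.3 CPM in the ∆Foxp3 chimera and 9.56 and 8.51 CPM in ∆Foxp3 mice (1.49 ± 0.29, adjusted p = 0.00128). Tnfsf11, which encodes RANKL, had 43.3 ± 23.9 CPM in the ∆Foxp3 chimera and 11.2 ± 4.66 CPM in ∆Foxp3 mice (1.97 ± 0.38, adjusted p = 0.00132), and Lta had 14.2 ± 3.76 CPM in the ∆Foxp3 chimera and 4.56 ± 0.305 CPM in ∆Foxp3 mice. Csf1, a macrophage growth factor, was lower, at 1.34, 10.2 and 6.48 CPM in the ∆Foxp3 chimera and 30.7 and 20.97 CPM in ∆Foxp3 mice (-2.11 ± 0.43, adjusted p = 0.00174). Follicular helper genes rose in 8 of 14 tested cases and fell in 0; Cxcr5 was at 13.4, 51.2 and 25.9 CPM in the ∆Foxp3 chimera and 2.90 and 3.11 CPM in ∆Foxp3 mice (3.26 ± 0.55, adjusted p = 4.46e-04), highest in replicate 2, which also had the largest Tfh cluster. Of 5 Th17 genes, 3 rose and 1 fell; Ccr6, which rose, had 32.5 ± 17.95 CPM in the ∆Foxp3 chimera and 1.91 ± 0.240 CPM in ∆Foxp3 mice. Rora, a nuclear receptor of tissue and effector T cells, fell and was at 71.9, 84.3 and 108 CPM in the ∆Foxp3 chimera and 286 and 244 CPM in ∆Foxp3 mice (-1.58 ± 0.20, adjusted p = 4.42e-05).

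Genes of naive and resting T cells were higher within the activated class, with 15 of 22 higher and 0 lower (median 1.69). Ccr7 was at 187, 93.8 and 147 CPM in the ∆Foxp3 chimera and 11.9 and 6.64 CPM in ∆Foxp3 mice (4.00 ± 0.33, adjusted p = 7.53e-07). Dapl1, a gene of naive T cells, was at 189, 121 and 73.4 CPM in the ∆Foxp3 chimera and 2.61 and 3.32 CPM in ∆Foxp3 mice (5.38 ± 0.58, adjusted p = 8.75e-06). Il6ra and Il6st, the chains of the interleukin-6 receptor, were higher as well. Il6ra was at 85.3, 64.6 and 76.99 CPM in the ∆Foxp3 chimera and 3.19 and 1.87 CPM in ∆Foxp3 mice (4.93 ± 0.32, adjusted p = 1.66e-07). Il6st was at 57.8, 81.2 and 76.3 CPM in the ∆Foxp3 chimera and 5.79 and 5.61 CPM in ∆Foxp3 mice (3.64 ± 0.35, adjusted p = 3.27e-06). For these 4 genes every chimera sample lay several-fold above both ∆Foxp3 samples. They were named under a rule that required no overlap, and over all tested genes 26.6% lay higher without overlap. The separation is therefore not separate support. Igfbp4 was at 168, 26.01 and 137 CPM in the ∆Foxp3 chimera and 10.7 and 7.48 CPM in ∆Foxp3 mice (3.66 ± 0.75, adjusted p = 0.00188), with replicate 2 well below the other chimera samples.

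Type I interferon response genes were also higher in chimera activated cells. Of 36 tested, 24 rose and 2 fell (median 1.17); Ly6a and Ly6e fell. Ifit1, an RNA-binding antiviral protein, was at 35.6, 38.6 and 86.3 CPM in the ∆Foxp3 chimera and 1.16 and 1.04 CPM in ∆Foxp3 mice (5.52 ± 0.50, adjusted p = 2.08e-06). Ifit3, its partner, was at 18.8, 20.5 and 33.1 CPM in the ∆Foxp3 chimera and 0.869 and 1.04 CPM in ∆Foxp3 mice (4.54 ± 0.51, adjusted p = 1.39e-05). Ifi27l2a was at 1377, 1774 and 2256 CPM in the ∆Foxp3 chimera and 584 and 616 CPM in ∆Foxp3 mice (1.59 ± 0.22, adjusted p = 9.90e-05). Interferon-gamma inducible GTPases, by contrast, gave 2 higher and 2 lower of 15. The Ifitm family, small membrane proteins that block virus entry, ran opposite to the Ifit genes: all 4 tested members fell. Ifitm2 was at 30.2, 37.8 and 8.63 CPM in the ∆Foxp3 chimera and 392 and 296 CPM in ∆Foxp3 mice (-3.74 ± 0.33, adjusted p = 1.52e-06), and Ifitm3 at 22.8, 4.73 and 14.4 CPM in the ∆Foxp3 chimera and 219.5 and 175 CPM in ∆Foxp3 mice (-3.75 ± 0.40, adjusted p = 8.71e-06). In the WT samples Ifit1 was at 36.1, 61.1 and 63.97 CPM in the WT chimera and 71.2 and 87.5 CPM in WT mice.

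**Figure D4:**
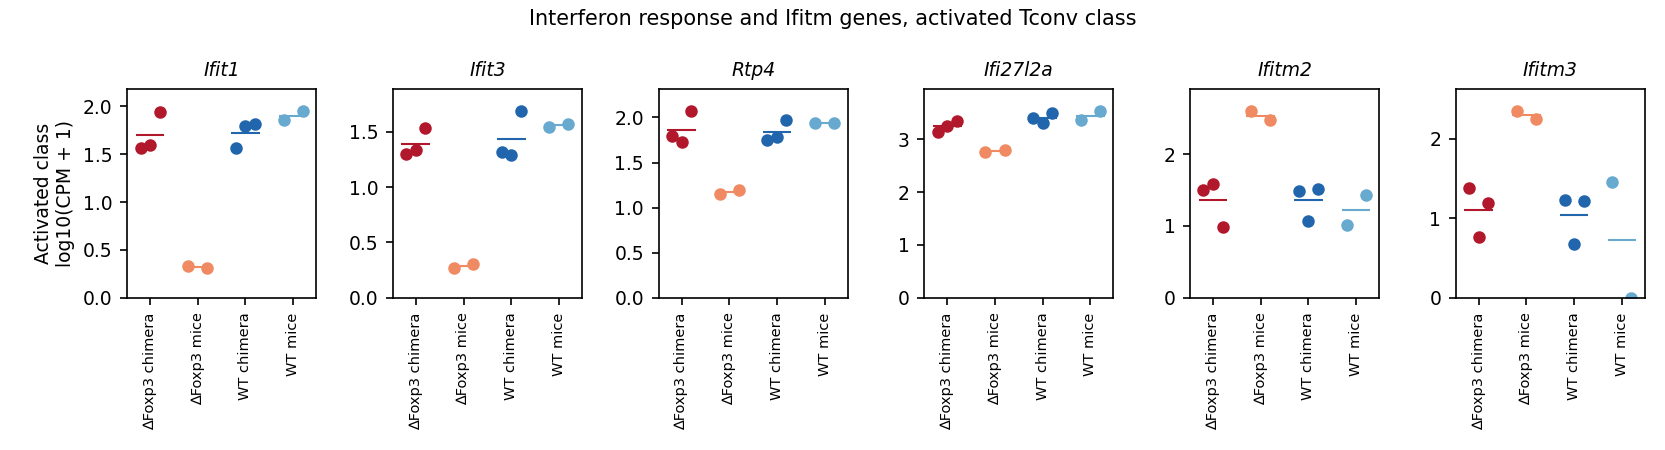
Levels of interferon response genes and of Ifitm genes in the activated class, as log10(CPM + 1) of the UMI sum per sample, for ∆Foxp3 chimera, ∆Foxp3 mice, WT chimera and WT mice; points are samples and lines are group means of the plotted values. Ifit1, Ifit3, Rtp4 and Ifi27l2a are lower in ∆Foxp3 mice than in every ∆Foxp3 chimera sample, and Ifitm2 and Ifitm3 are higher.

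Promoters of genes that moved together were searched for the interferon-stimulated response element core TTTCNNTTTC on both strands, over 250 bases before and 50 bases after the RefSeq start (GRCm38.p6). It occurred in 1079 of 27025 genes of the table (3.99%), in 15 of the 19 interferon response genes that rose and had a promoter in the table, and in 2 of the 4 Ifitm genes that fell. It also occurred in 3 of 7 interferon response genes and 6 of 7 interferon-gamma GTPases that did not pass, and in both GTPases that fell. A match describes letters and is not evidence of binding. The windows of 100 bases are shown because Ifit1 and Ifit3 rose while Ifitm2 fell; capitals mark the motif in sequence written on the strand of the gene, and in Ifitm2 it lies on the opposite strand.
Ifit1, chr19:34640740-34640839, plus strand: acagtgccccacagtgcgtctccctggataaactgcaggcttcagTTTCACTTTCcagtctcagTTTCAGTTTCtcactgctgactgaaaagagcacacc
Ifit3, chr19:34583328-34583427, plus strand: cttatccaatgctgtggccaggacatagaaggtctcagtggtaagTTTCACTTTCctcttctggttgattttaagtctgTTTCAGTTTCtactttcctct
Ifitm2, chr7:140955962-140956061, minus strand: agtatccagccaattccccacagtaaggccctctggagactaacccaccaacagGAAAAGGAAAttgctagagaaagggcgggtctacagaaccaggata

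In the Treg class the same effector lists were lower, on fewer cells. These cells carried the authors' Treg label without working Foxp3. Of 15 Th1 and cytotoxic genes tested, 11 fell and 1 rose (median -2.08), and of 35 activated and memory genes 22 fell and 2 rose (median -1.51). Without replicate 2, 11 of 14 Th1 and cytotoxic genes fell and 0 rose, in a fit that called 310 genes lower and 316 higher. Without cells that carried markers of other types, 9 of 15 fell and 1 rose, in a fit that called 254 genes lower and 258 higher. Shares over all genes tested in these fits are not given. Nkg7 was at 7.79, 85.7 and 16.9 CPM in the ∆Foxp3 chimera and 899.8 and 782 CPM in ∆Foxp3 mice (-4.46 ± 0.31, adjusted p = 6.62e-12). Gzmb was at 31.2, 0 and 4.22 CPM in the ∆Foxp3 chimera and 194 and 559 CPM in ∆Foxp3 mice (-4.86 ± 0.62, adjusted p = 1.16e-06). Lgals3 was at 7.79, 12.9 and 4.22 CPM in the ∆Foxp3 chimera and 526 and 434 CPM in ∆Foxp3 mice (-5.74 ± 0.38, adjusted p = 2.72e-12). Ccl5 was at 35.1, 599.9 and 160.4 CPM in the ∆Foxp3 chimera and 6109 and 3386 CPM in ∆Foxp3 mice (-4.12 ± 0.40, adjusted p = 6.12e-09), and replicate 2 was the highest of the chimera samples there as for Nkg7. Id2 was at 140.2, 120.0 and 118 CPM in the ∆Foxp3 chimera and 1162 and 1385 CPM in ∆Foxp3 mice (-3.25 ± 0.20, adjusted p = 1.46e-12), S100a4 at 242, 377 and 139 CPM in the ∆Foxp3 chimera and 2928 and 2479.5 CPM in ∆Foxp3 mice (-3.34 ± 0.24, adjusted p = 1.59e-11), and Serpina3f at 3.90, 8.57 and 12.7 CPM in the ∆Foxp3 chimera and 308 and 309.9 CPM in ∆Foxp3 mice (-5.11 ± 0.33, adjusted p = 2.95e-12). None of these 7 genes overlapped between the groups, as was the case for 22.5% of all tested genes in the lower direction. Gzmb, Lgals3 and Serpina3f were named under a rule that required no overlap, and the others for their low p in the same data. The absence of overlap is therefore not separate support. Ccl4 had 1 UMI over the chimera samples and 67 UMIs over the ∆Foxp3 mice, a ratio of 0.0208 (95% counting interval 0.000520 to 0.120). Ly6c2, a surface glycoprotein of memory and effector T cells, had 3 and 143 UMIs, a ratio of 0.0293 (95% counting interval 0.00597 to 0.0874). Ifng was at 3.90, 38.6 and 21.1 CPM in the ∆Foxp3 chimera and 122 and 73.2 CPM in ∆Foxp3 mice (-2.11 ± 0.44, adjusted p = 0.00136), and the call was lost without ∆Foxp3 replicate 1 (adjusted p = 0.0586). Klrg1, a receptor of terminally differentiated lymphocytes, rose (log2 fold change 1.76 ± 0.49, adjusted p = 0.016); the call was lost without ∆Foxp3 chimera replicate 2 (adjusted p = 0.0547) and ∆Foxp3 replicate 1 (0.16), and within resting Treg cells the value was -6.20 (0.0874). Proliferation genes fell in 11 of 28 cases and rose in 0, glycolysis genes fell in 8 of 14, and naive genes rose in 14 of 20 and fell in 1. Interferon response genes rose in 9 of 29 and fell in 1. Without cells that carried markers of other types 3 of 25 rose and 1 fell, again without a share over all genes of that fit. The 13 interferon-gamma GTPases and the 17 MHC class I genes tested gave 0 calls in the Treg class; 5 MHC class I genes fell in the activated class.

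Genes of the Treg signature split in the Treg class, with 8 of 35 higher and 4 lower. Lrrc32, the surface receptor that holds latent TGF-β, was at 35.1, 124 and 33.8 CPM in the ∆Foxp3 chimera and 2.34 and 10.2 CPM in ∆Foxp3 mice (3.24 ± 0.63, adjusted p = 5.83e-04). Nt5e, the ectoenzyme CD73 that makes adenosine, was at 35.1, 111 and 50.7 CPM in the ∆Foxp3 chimera and 4.67 and 5.11 CPM in ∆Foxp3 mice (3.74 ± 0.55, adjusted p = 1.17e-05), a call lost after thinning to 1500 UMIs (adjusted p = 0.12). Folr4, also called Izumo1r, was at 577, 934 and 688 CPM in the ∆Foxp3 chimera and 194 and 170.3 CPM in ∆Foxp3 mice (2.09 ± 0.20, adjusted p = 3.07e-09). Tnfrsf9, the costimulatory receptor 4-1BB, was at 46.7, 94.3 and 54.9 CPM in the ∆Foxp3 chimera and 7.01 and 23.8 CPM in ∆Foxp3 mice (2.03 ± 0.46, adjusted p = 0.00325). Il2ra, the high-affinity chain of the interleukin-2 receptor, was at 62.3, 133 and 63.3 CPM in the ∆Foxp3 chimera and 44.4 and 32.4 CPM in ∆Foxp3 mice (1.26 ± 0.34, adjusted p = 0.0136), a call lost without ∆Foxp3 chimera replicate 2 (adjusted p = 0.16) without ∆Foxp3 replicate 2 (adjusted p = 0.17) and after thinning (0.32). Nrp1 was at 93.5, 266 and 127 CPM in the ∆Foxp3 chimera and 77.1 and 81.7 CPM in ∆Foxp3 mice (1.08 ± 0.31, adjusted p = 0.0184) and lost its call without chimera replicate 2 (adjusted p = 0.29), without ∆Foxp3 replicate 1 (0.0726) or 2 (0.0900), after thinning (0.29) and with DESeq2 (0.0926). Ikzf2, the transcription factor Helios, was at 277, 656 and 372 CPM in the ∆Foxp3 chimera and 556 and 521 CPM in ∆Foxp3 mice and did not pass (-0.24 ± 0.21, adjusted p = 0.52), with overlapping groups. The 4 members that fell were Il2rb, Fgl2, Cish and Sdf4. Naive genes were Ccr7 at 159 ± 65.2 CPM in the ∆Foxp3 chimera and 60.3 ± 15.9 CPM in ∆Foxp3 mice (1.46 ± 0.29, adjusted p = 7.02e-04) and Id3 at 129.7 ± 29.7 CPM in the ∆Foxp3 chimera and 19.4 ± 15.5 CPM in ∆Foxp3 mice (2.93 ± 0.35, adjusted p = 5.17e-07; SD, n = 3 and 2). After thinning to 1500 UMIs Ccr7 was at 0.34 on the log2 scale and no longer passed (adjusted p = 0.77), and within resting Treg cells it was at 0.78 (0.0661). Mitochondrially encoded transcripts were higher in 8 of 12 cases in the Treg class and in 9 of 12 in the activated class, with 0 lower in either; median mitochondrial shares per cell ran from 5.995% to 6.13% in chimera Treg samples, against 4.41% and 4.83%.

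Shares of cells with a UMI were set beside the class sums. After thinning to 1500 UMIs, Nkg7 was seen in 16.1%, 12.1% and 10.1% of activated ∆Foxp3 chimera cells, against 65.4% and 61.7% in ∆Foxp3 mice. Among Treg-class cells it was 0%, 4.55% and 4.26%, against 55.4% and 42.4%; 0 of 51 cells allows a share of up to 5.88%. Gzmb was seen in 2.19%, 0.467% and 1.17% of activated chimera cells, against 26.1% and 22.3%, and in 1.96%, 0% and 2.13% of chimera Treg-class cells, against 13.8% and 22.7%. All 4 of these contrasts had non-overlapping groups and an exact two-sided permutation p of 0.1, the smallest possible. Of 8 genes tested this way in both classes, only Serpinb9 in the Treg class overlapped between the groups, with 2.93 ± 3.51% in the ∆Foxp3 chimera and 7.62 ± 2.08% in ∆Foxp3 mice (SD, n = 3 and 2; exact p = 0.3). These 8 were the effector genes with the lowest p among those called lower in the activated class sums. Lower shares in the same cells were therefore likely from the choice of genes and are not separate support. Resting cells of the same channels served as the background, since free RNA reaches every cell of a channel. After the same thinning, Nkg7 was in 0.828%, 2.00% and 0.903% of resting chimera cells and in 0.777% to 2.33% of resting WT cells. Median depths before thinning were 5334 to 6696 and 5038 to 6587 UMIs per cell. In resting-class cells of ∆Foxp3 mice Nkg7 was in 38.7% and 43.2%, far above that background. The chimera Treg-class shares of Nkg7 rested on 0, 2 and 2 cells, too few to set apart from it. Gzmb was in 0.387%, 0.461% and 0.282% of resting chimera cells, against 11.3% and 16.0% in resting-class cells of ∆Foxp3 mice. Intervals and floors cover counting error only.

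A test of the interaction between class and group asked whether the effect differed between the classes. It called 16 genes with a higher and 29 with a lower effect in the Treg than in the activated class, of 8302 tested (0.193% and 0.349%, 0.542% in all). Klrg1 was at 50.6, 64.3 and 46.4 CPM in the ∆Foxp3 chimera and 4.67 and 25.5 CPM in ∆Foxp3 mice in the Treg class and 1.34, 1.58 and 10.1 CPM in the ∆Foxp3 chimera and 27.2 and 23.5 CPM in ∆Foxp3 mice in the activated class (difference 4.29 ± 0.64, adjusted p = 4.79e-05). Lgals3 differed by -1.93 ± 0.46, adjusted p = 0.0334 (log2, Treg minus activated), a call lost without ∆Foxp3 chimera replicate 1, 2 or 3 (adjusted p = 0.58, 0.0811 and 0.16), without ∆Foxp3 replicate 1 (0.0764) and after thinning (0.86). Ccr7 was raised less in the Treg class (difference -2.58 ± 0.34, adjusted p = 4.91e-06), and Cxcr6 was lowered more (difference -2.37 ± 0.36, adjusted p = 9.15e-05). Id2 was also lowered more in the Treg class (difference -1.59 ± 0.16, adjusted p = 2.54e-08), as were Nkg7 (difference -1.87 ± 0.34, adjusted p = 0.00104) and Ccl5 (difference -1.68 ± 0.28, adjusted p = 4.91e-04). Without ∆Foxp3 chimera replicate 1 neither Nkg7 (-1.04, adjusted p = 0.43) nor Ccl5 (-1.11, adjusted p = 0.0556) passed. Serpinb1a, an inhibitor of neutrophil proteases, had 0 UMIs in the chimera Treg sums, against 39 UMIs in ∆Foxp3 mice (at least 9.31-fold lower, from a floor of 3 UMIs over the group), and was at 16.1, 17.3 and 26.6 CPM in the ∆Foxp3 chimera and 44.6 and 39.9 CPM in ∆Foxp3 mice in the activated class. Its class difference was lost without ∆Foxp3 chimera replicate 1, 2 or 3 (adjusted p = 0.13, 0.0830 and 0.17) and after thinning (0.93). H2afz fell less in the Treg class (difference 1.27 ± 0.11, adjusted p = 2.67e-10). Ccl1 had a difference of 4.89 ± 0.57, adjusted p = 6.87e-07 that rested on 1 library, with 553, 0 and 0 CPM in the ∆Foxp3 chimera and 30.4 and 1.70 CPM in ∆Foxp3 mice; without ∆Foxp3 chimera replicate 1 it was -3.52 (adjusted p = 0.95). With sample left out of the model the interaction called 1 gene in each direction, H2afz and Id2 (Klrg1 and Cxcr6 had an adjusted p = 0.0518 each), and 5 and 10 genes after thinning to 1500 UMIs.

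**Figure D5:**
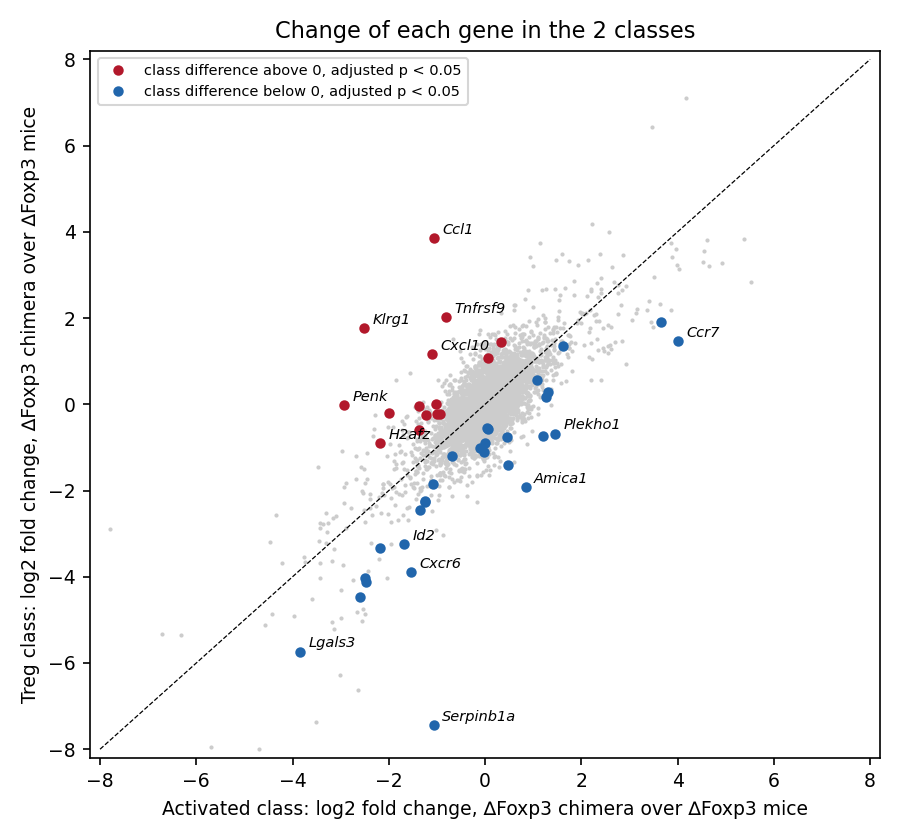
Log2 fold change, ∆Foxp3 chimera over ∆Foxp3 mice, of each gene tested in both classes, in the activated class (x axis) and the Treg class (y axis); coloured points passed the test of the class difference and the dashed line marks equal change. Klrg1 and Ccl1 lie above it and Lgals3 and Serpinb1a below.

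The WT samples give the difference between chimera and intact mice in cells with a working Foxp3. WT chimera cells differed from WT mice in 4 genes in each class (0.0652% of genes tested in the Treg class and 0.0457% in the activated class). H2-Q7 was higher in both (0.0163% and 0.0114%). Plac8, Crip1 and mt-Nd3 were lower in the Treg class (0.0489%), and Gm15446, Crip1 and mt-Nd3 in the activated class (0.0343%; edgeR, 303 and 486 genes at an unadjusted p under 0.05). WT mice gave only 37 and 29 Treg-class and 119 and 70 activated cells, so few calls do not show that the groups were alike. WT mice were 9 weeks old, so age was matched in neither contrast. The ∆Foxp3 chimera effect minus the WT chimera effect called 109 genes higher and 96 lower in the Treg class (1.78% and 1.56%, 3.34% in all), and 308 higher and 408 lower in the activated class (3.52% and 4.67%, 8.19% in all). Without WT replicate 1 these counts were 51 and 44, and 73 and 64. Among Treg-class genes 6 of 15 Th1 and cytotoxic genes were lower and 1 higher in this contrast, and 15 of 35 activated and memory genes lower and 1 higher. In the activated class 8 of 20 and 14 of 37 were lower with 0 higher, 23 of 35 proliferation genes lower with 0 higher, and 19 of 36 interferon response genes higher with 0 lower. Nkg7 in the Treg class had a difference of -5.31 ± 0.62, adjusted p = 1.89e-06, with 80.8, 65.8 and 30.5 CPM in the WT chimera and 14.9 and 51.2 CPM in WT mice. Ifit1 in the activated class had 6.13 ± 0.65, adjusted p = 4.82e-05. These contrasts share the ∆Foxp3 samples with the comparison above.

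∆Foxp3 chimera cells were also set against WT chimera cells of the same mice. In each mouse the cells of the 2 genotypes were run in opposite channels, with ∆Foxp3 cells in A, B and A and WT cells in B, A and B. Genotype and channel therefore cannot be told apart within a mouse, and no channel term was fitted for this contrast. The fit called 11 genes higher and 11 lower in the Treg class (0.179% and 0.179%, 0.359% in all) and 5 higher and 7 lower in the activated class (0.0572% and 0.0801%, 0.137% in all). With the mouse as a block it was 20 and 38, and 7 and 18. Without ∆Foxp3 chimera replicate 1 the Treg counts were 1 and 4, and without WT chimera replicate 2 the activated count of lower genes was 111. Il2ra in the Treg class was at 62.3, 133 and 63.3 CPM in the ∆Foxp3 chimera and 227, 231 and 256 CPM in the WT chimera (-1.41 ± 0.23, adjusted p = 0.00106). Tnfrsf9 was at 46.7, 94.3 and 54.9 CPM in the ∆Foxp3 chimera and 219.8, 311 and 223 CPM in the WT chimera (-1.92 ± 0.26, adjusted p = 4.53e-05). Crip1, a LIM domain protein, was at 876, 467 and 768 CPM in the ∆Foxp3 chimera and 442, 251 and 134 CPM in the WT chimera (1.45 ± 0.25, adjusted p = 0.00182), and lost its call without ∆Foxp3 chimera replicate 1 (adjusted p = 0.0730). Tcf7, a transcription factor of naive and memory T cells, was at 296, 176 and 258 CPM in the ∆Foxp3 chimera and 101, 113 and 143 CPM in the WT chimera (1.11 ± 0.22, adjusted p = 0.0114). Its call was lost without ∆Foxp3 chimera replicate 1 or 3 (adjusted p = 0.22 and 0.10) and without WT chimera replicate 1 or 2 (0.0867 and 0.0849). In the activated class Klrg1 was at 1.34, 1.58 and 10.1 CPM in the ∆Foxp3 chimera and 45.6, 20.6 and 23.3 CPM in the WT chimera (-2.61 ± 0.48, adjusted p = 0.0476), a call lost with the mouse as a block (adjusted p = 0.0743), without ∆Foxp3 chimera replicate 1 or 2 (0.27 and 0.0994) and without WT chimera replicate 1 or 3 (0.30 and 0.0989). The number of Th1 and cytotoxic genes lower in ∆Foxp3 chimera cells was 1 of 15 in the Treg class and 1 of 20 in the activated class.

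The class sums also move with the clusters in them, so the effector lists were counted within single clusters with enough cells. In Tconv_activated_2, 13 of 14 tested Th1 and cytotoxic genes fell and 0 rose, in the tissue-like cluster 13 of 16 fell and 1 rose, in the Th1 cluster 10 of 16 fell and 0 rose, and in the Tfh cluster 8 of 14 fell and 0 rose. Tbx21 did not pass within the Th1 or Tfh cluster (adjusted p = 0.20 and 0.21). For activated and memory genes the lower counts in the same clusters were 30 of 33, 24 of 34, 21 of 33 and 20 of 30. Interferon response genes rose in 14 of 22, 9 of 26, 11 of 24 and 2 of 21 cases. Within activated Treg cells 7 of 13 Th1 and cytotoxic genes fell and 1 rose, and within resting Treg cells 9 of 14 fell and 0 rose. Lower effector genes outnumbered higher ones within each of these 6 clusters. Over all tested genes lower calls also outnumbered higher ones in each, with 653 against 638 in Tconv_activated_2 and 519 against 435 in the tissue-like cluster. Shares called over all genes tested within a cluster are not given, so the list counts cannot be read against them.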

How the data were processed

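The submitters' processing notes name Cell Ranger 3.0.2 and mm10. The authors deposited 1 matrix of UMI counts (26652 cells, 33006 genes) and a cell annotation with counts per cell, separate Foxp3, GFP, Cre and YFP counts, the percent of mitochondrial UMIs, a doublet score (Scrublet; highest 0.284 in V3 cells, 0 cells called doublets) and the class and cluster of each cell. The matrix sum equalled the deposited number in 88.9% of V3 cells; 41 annotation columns were not used, and of 471 list genes 456 were matched by symbol, 13 by older symbol and 2 not at all (Ighd and Trdc). UMIs were summed per sample and class (at least 20 cells) and tested with edgeR 4.0.16 in R 4.3.3 (quasi-likelihood F test, TMM, filterByExpr with a minimum count of 10, Benjamini-Hochberg adjustment over all genes, threshold 0.05), in 1 fit per class over all V3 samples. CPM is the sum over its total times 1000000. Shares of cells were tested the same way on cell numbers. Chimera replicates were separate mice, per the series' design; for the ∆Foxp3 and WT mice the labels do not say so, and p-values then measure the spread between these samples, which may be technical. Alternatives were DESeq2 1.42.0, limma 3.58.1, other normalizations and filters, thinning, left-out samples and single clusters. Members, lists and tests were chosen with earlier results of these data known. Named genes were, per class, the 12 highest and 12 lowest log2 fold changes past the threshold with at least 20 CPM and no overlap, up to 4 genes of each list with the lowest p, and the 6 highest and 6 lowest for each difference of effects; a few others (Ctse, Evi2a, Cd44, Tbx21, Ikzf2, Nrp1, Klrk1, Xcl1 and genes of the WT comparisons among them) were named after their values were seen. On simulated counts 4-fold changes were recovered in 82.1% of genes (2-fold 42.7%) in the Treg class, in 94.7% (52.6%) in the activated class and in 61.5% (20.4%) for the class difference. Same-numbered chimera samples of both genotypes shared a hashtag, which marks 1 mouse per the series' design. Their deviations correlated by 0.041, 0.130 and 0.058 in the Treg class and by 0.132, 0.182 and 0.041 in the activated class. Pairs of different numbers ran from -0.121 to 0.067 and from -0.167 to 0.057, so some exceeded matched pairs. Deviations were centred within each genotype, so matched and unmatched pairs are not independent. Results for a few list members are not reported here.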

Additional observations from a re-analysis of the deposited data

Results flagged for a closer look

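Genes whose ∆Foxp3 chimera effect differed from the WT chimera effect in the edgeR interaction test are given as log2 differences of effects. In the Treg class the highest were Ttc28 (3.95), Dapl1 (3.95), Il6ra (3.65), Ighm (3.60), Nsg2 (3.50) and Actn1 (3.28). The lowest were Serpina3f (-10.35), Tm6sf1 (-9.14), Gp49a (-9.09), Lgals3 (-6.95), Nkg7 (-5.31) and Lilrb4 (-4.72); Serpina3f, Tm6sf1 and Gp49a had 0 UMIs in the Treg sums of WT mice, so their fitted values depend on the prior count. Ighm is also a member of the B cell marker list. Summed B cell markers were at 270.2 to 377.1 CPM in ∆Foxp3 chimera Treg sums, against 102.8 to 146.5 CPM in ∆Foxp3 mice. Whether Ighm came from B cell RNA was not tested. With single samples left out, Lilrb4 lost its call without 7 of the 10 samples and Gp49a without 4. Ttc28, Dapl1 and Actn1 lost it without WT replicate 1 (adjusted p = 0.44, 0.27 and 0.12). In the activated class the highest were Ifit1 (6.13), Dapl1 (6.0), Igfbp4 (5.14), Il6ra (4.98), Pdlim4 (4.24) and Ccr7 (4.17), and the lowest Penk (-7.50), A230065H16Rik (-6.43), Mt1 (-5.93), Serpina3f (-5.71), Ccna2 (-4.87) and Gzmb (-4.77). Without WT replicate 1, Pdlim4, Igfbp4, Penk, A230065H16Rik and Ccna2 lost the call (log2 differences 3.18, 3.83, -6.35, -5.28 and -4.41). Without ∆Foxp3 replicate 2, Igfbp4, Pdlim4, Penk and A230065H16Rik lost it (4.88, 4.13, -6.24 and -5.82). Penk and A230065H16Rik also lost it without WT replicate 2 (-11.12 and -10.06). A230065H16Rik lost it too without ∆Foxp3 chimera replicate 2 or 3 and without WT chimera replicate 1 or 3 (adjusted p = 0.0510, 0.0704, 0.22 and 0.0613).

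Genes whose ∆Foxp3 chimera effect differed between the classes are given as the Treg minus the activated log2 effect. They were Ccl1 (4.89, which rested on 1 library), Klrg1 (4.29), Penk (2.97), Tnfrsf9 (2.93), Hist1h4i (2.92), Cxcl10 (2.40) and H2afz (1.27) on the higher side. On the lower side were Serpinb1a (-7.68, with 0 UMIs in chimera Treg sums), Amica1 (-2.76), Ccr7 (-2.58), Cxcr6 (-2.37), Plekho1 (-2.15), Lgals3 (-1.93), Ccl5 (-1.68), Nkg7 (-1.87) and Id2 (-1.59). With 1 of the 5 samples left out at a time, Klrg1, Tnfrsf9, Ccr7, Cxcr6, H2afz and Id2 kept their calls each time, and the others each lost theirs at least once.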

How the results depend on the processing

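Only 2 ∆Foxp3 samples that share a hashtag, and 44 to 66 Treg-class cells per ∆Foxp3 chimera or ∆Foxp3 sample, limit the tests of these groups. The tests that use WT mice are limited further by 37 and 29 Treg-class and 119 and 70 activated cells in those samples. With a single sample left out, the comparison of ∆Foxp3 chimera with ∆Foxp3 mice gave 146 to 316 higher and 190 to 310 lower genes in the Treg class, and 422 to 1057 higher and 621 to 1224 lower in the activated class, each lowest without ∆Foxp3 replicate 2. The difference from the WT chimera effect gave 49 to 123 and 44 to 117 genes, and 73 to 412 and 64 to 585. ∆Foxp3 chimera against WT chimera gave 1 to 12 and 4 to 23, and 2 to 11 and 2 to 111. The class difference gave 10 to 18 and 12 to 27. Log2 ratios of shares were -1.53 to -0.997 for the Treg class and -1.89 to -1.38 for the activated class.

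DESeq2 called 190 higher and 203 lower genes in the Treg class and 743 higher in the activated class. After thinning to 1500 UMIs per cell, with fewer UMIs behind each sum, it was 78 and 87 in the Treg class, 386 and 471 in the activated class, and 5 and 10 for the class difference. Single clusters, chosen after seeing the data and with fewer cells, gave 158 and 182 (activated Treg), 203 and 209 (resting Treg), 638 and 653 (Tconv_activated_2), 435 and 519 (tissue-like), 168 and 200 (Th1) and 220 and 258 (Tfh). On arcsine square roots the Treg share differed by -0.0872 and no longer passed; the cause was not tested. The class difference of Ccl1 was -3.52 without ∆Foxp3 chimera replicate 1 and 8.16 without ∆Foxp3 replicate 1.

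With the replicate number as a block the counts were 329 and 336 in the Treg class and 1025 and 1202 in the activated class. With the mouse as a block, chimera samples only, ∆Foxp3 against WT gave 20 and 38 genes in the Treg class and 7 and 18 in the activated class. With no sample block the class difference gave 1 and 1. Among named genes, 31 of 628 checks lost the call in the Treg class and 34 of 1000 in the activated class, 42 of 109 for the class difference (besides Ccl1, which turned round), 16 and 15 of 144 for the difference from the WT chimera effect, and 34 of 86 and 5 of 16 for ∆Foxp3 against WT chimera. The 628 and 1000 checks include the setting of at least 10 cells per sample (38 and 56 checks), which gave the same counts as the main fit. Genes not called in the main fit, such as Cd44, were counted as kept where they stayed uncalled. The lost calls are therefore a lower part of these totals than of the checks that could lose one. Klrg1 in the Treg class was -6.20 within resting Treg cells. Cd44 in the activated class, at 0.05, turned to -0.053 without cells with markers of other types, to -0.14 without NKT, Tfh, dividing and interferon clusters, to -0.12 within the tissue-like and -0.98 within the Tconv_activated_2 cluster (adjusted p = 0.00207), and ran from -0.079 (without ∆Foxp3 chimera replicate 2) to 0.17 (without ∆Foxp3 replicate 1) with a single sample left out.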

Other observations

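The authors' resting class was not part of the comparison and was not tested, but its sums show where effector genes lay. S100a4, a calcium-binding protein of memory cells, was at 19.7, 26.9 and 21.3 CPM in the ∆Foxp3 chimera and 2514 and 2657 CPM in ∆Foxp3 mice. The chemokine receptor Cxcr3 was at 5.82, 7.12 and 4.09 CPM in the ∆Foxp3 chimera and 266 and 254 CPM in ∆Foxp3 mice. Ccr7, which guides naive cells into lymph nodes, was at 363, 329.7 and 345 CPM in the ∆Foxp3 chimera and 126 and 78.3 CPM in ∆Foxp3 mice. Cells placed in the resting class of ∆Foxp3 mice thus held activation RNA that resting chimera cells held at a small fraction of that level.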
